A study of Danio rerio with 6 samples.

Results

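Single insertions and deletions that lay outside the region around the Cas9 cut were described in 6 ScarTrace zebrafish, as a measure of the background under the lineage scars. A scar is the pattern of inserted and deleted bases that a read carried against the GFP reference, which is 720 bases long, and all positions are counted from 1 at its start. Members were chosen by position and read count. A member had exactly 1 deletion or insertion, had no deleted or inserted base between positions 520 and 570, and had at least 10 reads in at least 1 library. The rule found 11 scars. With any read, 127 single events outside the window were seen, and 116 of them stayed under the minimum in every library. With the same minimum the 6 fish held 4273 scars, of which 664 were single events, 653 of them reaching into the window (here called near scars).

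The fish were about 1 year old when parts of their bodies were dissected, and all carried 8 copies of the H2A-GFP transgene. All had been injected at the 1-cell stage with a guide RNA against GFP, together with Cas9 RNA in fish R1, R2 and R3 or with Cas9 protein in fish P1, P2 and P3. Libraries were the 130 barcodes with at least 1000 reads, between 13 and 31 per fish, and the fish totals lay between 4211588 and 23286860 reads. No fish without Cas9 was among the samples, so the level of these events in DNA that was never exposed to Cas9 was not measured. Barcodes are given by number, because the body structures behind them were not used here, and technical replicas were not summed. The tables list the kind, position and length of an event but neither the inserted bases nor substitutions, so an insertion of a given length at a given position could stand for more than 1 sequence.

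Cas9 cuts both DNA strands at the site its guide RNA matches, and end joining in the cell repairs the break, often with small deletions or insertions at the cut. ScarTrace reads such changes as marks of clones, because a cell passes them on when it divides. Reads can also differ from a reference away from the cut, for example through errors in PCR, sequencing or alignment, and such differences set a floor below which a scar is hard to read as a clone mark. Where the events described here came from was not tested.

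The members sat almost entirely downstream of the window and close together. Of the 11, 10 lay downstream and 9 of these started between positions 572 and 582, within a few bases of each other. The downstream exception was a deletion of 5 bp from 667 to 671, and the upstream member was an insertion of 1 bp at 514. There were 5 deletions and 6 insertions, and 9 of the 11 changed 1 bp, as 4 deletions and 5 insertions. Together they held 89125 reads. The same place dominated without the read minimum, with 98.8% of all reads on single events outside the window falling on 46 scars between 571 and 582, against 0.725% on 47 scars upstream and 0.454% on 34 scars farther downstream.

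A core of 6 members was kept in all 6 fish and held 98.1% of the member reads. The core was made of 1-bp deletions at 574, 576 and 580, with 91.4% of the member reads, and 1-bp insertions at 580, 581 and 582, with 6.71%. The other 5 members held 1.93%.

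The deletion at 576 was the most abundant member, with 41780 reads and at least 1 read in all 130 libraries. Its mean share of the reads was 0.0916% in fish R1, 0.156% in R2, 0.0676% in R3, 0.0593% in P1, 0.0372% in P2 and 0.0454% in P3. The 3 Cas9 RNA fish thus stood above the 3 Cas9 protein fish, and fish R2 was the highest. The spread between libraries of a fish was wide, from 0.00495% to 0.197% in R1 and from 0.023% to 0.261% in R2.

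The deletion at 574 came next, with 26093 reads in 127 libraries. Its mean share was 0.0578% in R1, 0.105% in R2, 0.0411% in R3, 0.0355% in P1, 0.0231% in P2 and 0.0295% in P3. The order of the fish was that of the deletion at 576. The deletion at 580, with 13548 reads in 127 libraries, had mean shares of 0.0181%, 0.0431% and 0.0219% in R1, R2 and R3, and of 0.0185%, 0.0124% and 0.0152% in P1, P2 and P3. Here the groups overlapped, since R1 lay below P1.

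The 3 deletions kept their order in most libraries. The deletion at 576 had more reads than any other member in 126 of 130 libraries. In barcodes 9 and 10 of fish P3 it was tied with the deletion at 574, at 7 and 6 reads each, and in barcodes 5 and 14 of fish P2 the deletion at 574 had 30 reads against 26 and 38 against 32. The order 576, 574, 580 held in 103 of 130 libraries. These were 31 of 31 in R1, 10 of 13 in R2, 12 of 14 in R3, 19 of 26 in P1, 14 of 23 in P2 and 17 of 23 in P3. It also failed at high depth. Barcode 24, the library of P1 with the most reads, had 359 reads at 580 against 300 at 574. Within a library the reads at 574 were 58.3% ± 20.8 of those at 576 (SD, n = 130 libraries), and the reads at 580 were 31.9% ± 14.02 of those at 576.

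The core insertions were rarer and had reads in fewer libraries. The insertion at 582 had 3659 reads in 123 libraries, that at 581 had 1510 reads in 115 and that at 580 had 815 reads in 102. Mean shares of the insertion at 582 were 0.00506% in R1, 0.0115% in R2, 0.00682% in R3, 0.00507% in P1, 0.00339% in P2 and 0.00387% in P3, so that R1 and P1 were nearly equal. Those of the insertion at 581 lay between 0.0012% in P3 and 0.00416% in R2, and those of the insertion at 580 between 0.000777% in P2 and 0.00232% in R2. Fish R2 was the highest for each of the 6 core members.

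The other members were uneven over the fish. The deletion of 1 bp at 573 resembled the core, with 370 reads spread over 89 libraries of all 6 fish, but reached 10 reads in a library only in R1, R2 and P1. The insertion of 1 bp at 572 was seen in 2 Cas9 RNA fish only, with 322 reads in 13 of 13 libraries of R2 and 91 reads in 13 of 14 libraries of R3. The remaining 4 fish had 0 reads of it, and 3 reads, taken as the detection limit, would have been 2.5e-05% in R1, 1.29e-05% in P1, 3.41e-05% in P2 and 3.93e-05% in P3. Its mean share was 0.00402% ± 0.00141 in R2 (SD, n = 13 libraries) and 0.0025% ± 0.00201 in R3 (SD, n = 14 libraries), which is above these limits by a wide margin.

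The upstream insertion of 1 bp at 514 belonged to fish P1, which had 435 of its 436 reads, in 24 of 26 libraries, with a mean share of 0.0016% ± 0.00127 (SD, n = 26 libraries). The last read was in fish P2. The longest insertion, of 6 bp at 573, was found in fish R2 alone and nearly in 1 library, since barcode 14 held 477 of its 483 reads, 0.0452% of that library. The longest deletion, of 5 bp from 667 to 671, was found in fish R3 alone, with 15 of its 18 reads in barcode 5, 0.0309% of that library. These last members therefore differed from the core in that they belonged to 1 fish, and the 5-bp deletion and the 6-bp insertion belonged mostly to 1 library.

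As a share of all reads, the members together made up a small and variable part of every library. The lowest, median and highest library shares were 0.00976%, 0.159% and 0.372% in R1 (n = 31), 0.0384%, 0.357% and 0.512% in R2 (n = 13), and 0.042%, 0.129% and 0.323% in R3 (n = 14). In the Cas9 protein fish they were 0.0512%, 0.126% and 0.206% in P1 (n = 26), 0.0159%, 0.0681% and 0.198% in P2 (n = 23), and 0.00722%, 0.0945% and 0.227% in P3 (n = 23). Every one of the 130 libraries had at least 4 member reads, and the share differed 70.9-fold between the lowest and the highest library.

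The fish means were 0.177% ± 0.115, 0.331% ± 0.155 and 0.147% ± 0.0676 in R1, R2 and R3, and 0.124% ± 0.0451, 0.0789% ± 0.0442 and 0.0962% ± 0.0748 in P1, P2 and P3 (SD over the libraries given above). The mean over fish was 0.218% ± 0.0985 after Cas9 RNA and 0.0997% ± 0.0227 after Cas9 protein (SD, n = 3 fish each), a difference of 0.119 percentage points. The 2 groups did not overlap, and the exact permutation test gave p = 0.10, two-sided, which is the smallest value that 3 against 3 fish allow (adjusted p = 0.167 over the 10 tests made here, exact permutation). The size rested on fish R2, without which it was 0.0624 percentage points. Without the read minimum the difference was 0.119 and over all barcodes 0.0412 percentage points. With a window of 500 to 590, which left 1 member, it was 0.000755. With a window of 530 to 560 it turned to -1.04 percentage points. That window counts scars closer to the cut as members. Among them was a 5-bp deletion from 519 to 523 with 99216 reads, 99044 of them in P3. The number of members kept per fish was 7, 9 and 8 after Cas9 RNA and 8, 6 and 6 after Cas9 protein, which overlap (exact permutation p = 0.30, adjusted 0.375). This count is set by the same read minimum that chose the members, so no conclusion is drawn from it.

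Unscarred GFP differed between the same fish and libraries. Its mean share was 32.4%, 86.3% and 45.1% of the reads in R1, R2 and R3 and 36.3%, 25.1% and 25.7% in P1, P2 and P3. A read with a member event has no other event, so its cut region is unscarred. Member reads were therefore also counted per 100 unscarred reads. On that scale the fish lay at 0.504 ± 0.126 in R1, 0.383 ± 0.178 in R2, 0.33 ± 0.131 in R3, 0.344 ± 0.0956 in P1, 0.332 ± 0.151 in P2 and 0.37 ± 0.0983 in P3 (SD over libraries). The ratio of the highest to the lowest fish was 4.19 for the share of all reads and 1.53 per 100 unscarred reads, and the highest fish was R1 in place of R2.

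Per 100 unscarred reads the group means were 0.406 ± 0.0895 after Cas9 RNA and 0.349 ± 0.0194 after Cas9 protein (SD, n = 3 fish each), and the groups overlapped. The difference of 0.057 had an exact permutation p of 0.50 (adjusted 0.556). It was 0.00774 without R1, 0.095 without R3 and -20.1 with a window of 530 to 560, which takes in abundant scars closer to the cut. The spread between libraries also narrowed, with the coefficient of variation going from 64.8% to 25% in R1, from 45.9% to 39.7% in R3, from 36.4% to 27.8% in P1, from 55.98% to 45.4% in P2 and from 77.7% to 26.6% in P3. In R2, where most reads were unscarred, it was 46.8% and 46.6%.

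The core members differed in how steady they were on this scale. The deletion at 580 was close to the same level in every fish, with means of 0.0551, 0.0499, 0.0481, 0.0508, 0.0506 and 0.0546 reads per 100 unscarred reads in R1, R2, R3, P1, P2 and P3, a ratio of 1.14 between the highest and the lowest. The insertion at 582 had a ratio of 1.20, with means between 0.0133 in R2 and 0.016 in P3, and those at 581 and 580 had ratios of 1.50 and 1.74. The deletions at 574 and 576 both had a ratio of 1.71, with R3 lowest and R1 highest. Over all 130 libraries the coefficient of variation was 28.5% for the deletion at 580, 40.6% for that at 576 and 54.2% for that at 574. It was 49.4% for the insertion at 582, 63.8% for that at 581 and 88.5% for that at 580, which rest on fewer reads.

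A few libraries, picked out after their values were seen, stood far below the mean of their fish. Barcode 8 of fish R2 had 593037 reads and 0.0978 member reads per 100 unscarred reads, with 31 reads of the deletion at 574 against 264 at 576. Barcode 11 of fish R3 had 0.0954 per 100, with 4 reads at 574 against 22 at 576. In both, the deletion at 574 was low even against that at 576. Barcode 31 of fish R1, with 1475855 reads, had 0.129 per 100, with 32 reads at 574 against 73 at 576. The lowest library of all, barcode 13 of fish R2 at 0.0454 per 100, rests on 5 member reads in 13027. Other libraries were low too, such as barcode 10 of fish R2 at 0.162 per 100, with 90 reads at 574 against 256 at 576.

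The same events were then looked for on reads that also carried a near scar. The rate on reads with a near scar was the number of reads with that scar and a member event, over that number plus the reads with the near scar alone. The 12 most abundant near scars of each fish were used, with the reads of a fish pooled. A pooled rate also depends on which libraries held the scar, and the intervals do not cover this. On most of them the members were found at rates of the same order as on unscarred reads, with 1 scar in each of R2, P1 and P2 far below. In R3 they carried a member on 0.29% to 0.334% of reads, against 0.312% for unscarred reads, and in P3 on 0.256% to 0.314%, against 0.32%. In P3 all 12 lay below the unscarred rate, and for 3 of them the Wilson intervals did not overlap with it. In R1 the median was 0.391% and the range 0.345% to 0.667% (unscarred 0.486%), with 11 of 12 below the unscarred rate beyond their intervals. The highest was on a deletion of 18 bp at 532 that carried some second event on 32.9% of its reads. The scars set apart in R2, P1 and P2 had a rate under 25% of the unscarred rate (a limit set after seeing the values) and are described separately. Without them, the range was 0.335% to 0.533% in R2 (unscarred 0.375%), 0.291% to 0.364% in P1 (unscarred 0.312%) and 0.228% to 0.387% in P2 (unscarred 0.3%). In P1 and P2, 6 and 8 of the 12 scars lay above the unscarred rate beyond their intervals.

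The deletion of 6 bp from 542 to 547 was the near scar with the most reads over the 6 fish and allowed a comparison within libraries. Averaged over the libraries with at least 1000 reads of it, a member was carried by 0.502% of unscarred reads and 0.539% of reads with that deletion in R1, by 0.392% and 0.404% in R2 and by 0.329% and 0.342% in R3. The pairs were 0.34% and 0.348% in P1, 0.331% and 0.333% in P2, and 0.369% and 0.375% in P3. The mean difference, unscarred minus scarred, was -0.0132 percentage points, the fish mean being higher on the scarred reads in 6 of 6 fish. The exact sign-flip permutation p was 0.03125, unadjusted, in a comparison added after seeing the data. Single libraries were more evenly split, with the unscarred rate the higher in 61 of 127. These were 9 of 31 in R1, 5 of 11 in R2, 7 of 14 in R3, 11 of 25 in P1, 15 of 23 in P2 and 14 of 23 in P3. The median library difference was -0.0018 percentage points, and it was positive in R3, P2 and P3. With the reads of all libraries pooled the direction was not the same in every fish, as the pooled rate on the scarred reads was lower in R1 (0.392% against 0.486%), R3, P2 and P3 and higher in R2 and P1. The Wilson intervals of both rates overlapped in 120 of these 127 libraries.

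The low libraries were picked for a low rate on unscarred reads, so that this rate is low follows from the choice. In those listed here the rate on reads with the 6-bp deletion was below the fish mean too. In barcode 8 of R2 the rates were 0.0977% on unscarred reads and 0.0995% on reads with the 6-bp deletion. The latter rested on 5 reads. In the same fish they were 0.162% and 0.109% in barcode 10, with 5 reads behind the latter. In barcode 13 they were 0.0454% and 0.256%, with 1 read behind the latter. They were 0.129% and 0.111% in barcode 31 of R1, and 0.0953% and 0.0346% in barcode 11 of R3, the latter resting on 3 reads. In fish P2 they were 0.125% and 0.22% in barcode 20, with 7 reads behind the latter, and 0.143% and 0.136% in barcode 9. Over the 127 libraries the median absolute difference between both rates was 0.0353 percentage points.

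Member by member, with the reads of a fish pooled, the insertion at 514 stood apart. In fish P1 it was found on 0 of 3105064 reads with the 6-bp deletion, where 171 would match its rate on unscarred reads. In the same fish the deletion at 576 was found on 4513 of them, where 4440 would match, and the deletion at 580 on 1740, where 1683 would. With libraries pooled, the core deletions fell short of the unscarred rate in R1 and P3 but not in every fish. In R2 each lay above it, with 135, 195 and 63 reads at 574, 576 and 580, where 119, 175 and 53.9 would match. In R3 and P2 the deletion at 576 lay below it and those at 574 and 580 above. In R1 those at 574, 576 and 580 had 2065, 3417 and 845 reads, where 2648, 4259 and 959 would match. In P3 those at 574 and 576 had 519 and 977, where 660 and 1072 would. Pooling gives weight to libraries rich in the 6-bp deletion. Barcode 31 of R1 held 414276 of 1710741 such reads, with members on 0.111%, and barcode 12 of P3 held 263541 of 723630, with members on 0.177%. Averaged over libraries, the rate of all members was higher on the scarred reads, at 0.539% against 0.502% in R1 and 0.375% against 0.369% in P3. Members outside the core were found on reads with the 6-bp deletion too. The insertion at 572 had 7 reads in R2 (4.35 at the unscarred rate) and 16 in R3 (21.6 at the unscarred rate). The deletion at 573 had 24 in R1 (40.4 at the unscarred rate) and 34 in P1 (47.7 at the unscarred rate). In R2 and P3 it had 1 and 8, where 1.19 and 10.2 would match. In R3 and P2 it lay above, with 7 in each, where 4.76 and 6.16 would match. The 6-bp insertion at 573 and the 5-bp deletion at 667 each had 0 reads, where 6.52 and 4.28 would match their unscarred rates. Their upper Wilson limits, 0.00377% in R2 and 0.00086% in R3, lay below the pooled unscarred rates of 0.0064% and 0.00096%. Those rates have a counting error of their own, which this comparison leaves out. Each of the 2 members also passed the read minimum in 1 library only, on reads without another event. The choice thus favours a high unscarred rate, and no conclusion is drawn from their absence. Barcode 5 of R3, which held most reads of the 5-bp deletion, had 3895 of the 446434 reads with the 6-bp deletion. For the 5-bp deletion the pooled comparison is therefore limited by depth.

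A 1-bp insertion at 533 was the clear exception among the near scars. It made up 14.8% of all reads in fish P2, where it was the most abundant near scar, and 3.85% in P1, and had reads in every library of both. In P1 there were 15 reads with this scar and a member beside 895489 with the scar alone, 0.00168% (95% Wilson interval 0.00102% to 0.00276%), where 2802 would match the unscarred rate. In P2 there were 23 beside 1300170, 0.00177% (0.00118% to 0.00265%), where 3906 would. In fish R1 a scar with the same position and length, at 0.111% of the reads, had 46 reads with a member beside 13359 alone, 0.343% (0.257% to 0.457%), just under the range of the 12 scars of that fish. Second events of any kind, members included, were on 0.0816% of the reads of this scar in P1 and 0.0733% in P2. On other scars the members were a large part of this total. It was 0.487% on the 11-bp deletion at 535 in P1, with members on 0.336%. On the 8-bp insertion at 545 in P2 it was 0.456%, with members on 0.387%. The low total on the insertion at 533 therefore does not show that second events other than members were rare there. In R2 the exception was a deletion of 30 bp at 540, with 10 reads beside 19085 alone, 0.0524% (0.0284% to 0.0964%). The cause was not tested.

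Fish P2, whose leading near scar was this insertion, decided the comparison of unscarred reads with reads of each fish's leading near scar. Over all fish it gave 0.38% ± 0.0671 against 0.334% ± 0.178 (SD, n = 6 fish), with an exact sign-flip permutation p of 0.84375 (adjusted 0.84375), and with the unscarred reads higher in 2 of 6 fish. Without P2 the mean difference went from 0.0455 to -0.0112 percentage points.

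Compared with the near scars of the same fish, more of the members changed 1 bp and their shares varied less between libraries, although no test passed 0.05 after adjustment. On average 96.1% ± 6.11 of a fish's members changed 1 bp, against 13.3% ± 2.43 of its near scars (SD, n = 6 fish), higher in 6 of 6 fish. The rule bears on this, since a longer deletion is more likely to reach the window, so no conclusion on length is drawn. The mean share of insertions was 49.7% ± 4.04 among members and 20.5% ± 3.23 among near scars, higher in 6 of 6 fish. Weighting each scar by its reads turned the order, since the abundant members were deletions. The rule bears on the share of insertions too. An insertion counted as 1 position whatever its length, but every deleted base had to lie outside the window. No conclusion on insertions is drawn from this comparison. Both comparisons had an exact sign-flip permutation p of 0.03125, the smallest that 6 fish allow, and an adjusted p of 0.0781. The same 6 core scars were kept in every fish and were all the members of P2 and P3. On the member side, the agreement of the fish therefore rests largely on 1 shared list.

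A member had a read in a median of 95.4% ± 3.96 of a fish's libraries and a near scar in 71.1% ± 6.83 (SD, n = 6 fish). Among scars with at least 1000 reads in a fish, the median coefficient of variation of the library shares was 57.03% ± 15.8 for the 2 to 4 members that qualified and 219% ± 12.1 for the near scars. Both differences had the same direction in 6 of 6 fish (exact sign-flip permutation p = 0.03125, adjusted 0.0781), so neither passed 0.05 after adjustment. Here too the members were largely the same core scars in every fish, so the fish were not separate sets of members. Among scars with at least 100 reads in a fish the first difference shrank from 24.2 to 6.98 percentage points (exact sign-flip permutation p = 0.0625). Against near scars of 1 bp only, an alternative chosen after seeing the data, the values were 95.4% against 83.4% of libraries and 57.03% against 209.6% in variation. Recurrence gave no call, with 94.0% ± 6.61 of members and 88.8% ± 4.86 of near scars kept in another fish, higher for members in 4 of 6 fish (exact sign-flip permutation p = 0.25, adjusted 0.357).

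The edges of the rule were filled unevenly. Just inside the read minimum lay the 5-bp deletion at 667, with 15 reads in its best library, and the 1-bp deletion at 573, with 35. Just outside were an insertion of 2 bp at 579 with 9 reads in barcode 7 of R2, a deletion of 5 bp at 465 with 8 and a deletion of 1 bp at 469 with 7, both in barcode 31 of R1, and a deletion of 1 bp at 610 with 7 in barcode 7 of R2. At the upstream edge of the window the near scars had more reads. A deletion of 5 bp from 519 to 523 was kept in 4 fish, but 99044 of its 99216 reads were in P3. A deletion of 5 bp from 518 to 522 had 6564 reads and was kept in 6 fish. A deletion of 8 bp from 514 to 521 had 1225 reads and was kept in P2. Near scars that started at the downstream edge were few, with 151 reads on a deletion of 1 bp at 568 and 97 on a deletion of 2 bp from 569 to 570. A longer deletion, of 30 bp from 540 to 569, reached this edge too, with 19085 reads in R2. Reads on scars that started at this edge were thus far fewer than in the cluster a few bases farther downstream.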

How the data were processed

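The authors mapped GFP amplicon reads with BWA 0.7.16a and deposited a table of raw read counts per fish, with scars in rows and barcodes in columns, before any noise filter. Scars are written as alignment strings, from which position, kind and length of each event were read. The counts were analysed as deposited, in barcodes with at least 1000 reads. The members and lists were chosen with earlier results of these data known. The scars named are the 6 most abundant, those kept in 1 fish, the longest, and those at the edges of the rule.

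Library values were averaged within a fish, and the fish was the unit of every test. The 2 injection groups were set against each other by exact permutation of the fish (20 assignments), and classes of scars or reads of the same fish by exact sign-flip permutation tests (64 assignments), all two-sided, with Benjamini-Hochberg adjustment over 10 tests. Intervals are 95% Wilson intervals and the detection limit is 3 reads. Both cover counting error only, since PCR reads without molecular identifiers are not independent molecules. The alternatives changed the window, the read minimum, the library minimum, the depth, the weighting and the fish used. The scripts were tested on simulated data. Python 3.11.15, NumPy 2.4.6, pandas 2.3.3 and SciPy 1.17.1 were used, with random seed 1.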

Additional observations from a re-analysis of the deposited data

Results flagged for a closer look

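Barcodes with fewer than 1000 reads were left out of the comparisons above, and member reads appeared there too. The 242 such barcodes held 6214 reads, of which 9 were member reads in 7 barcodes, or 0.145% (95% Wilson interval 0.0762% to 0.275%), above the 0.0483% that 3 reads would give. This amounts to 0.237 member reads per 100 unscarred reads. No control samples were at hand for these barcodes.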

How the results depend on the processing

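Of 109 alternative settings run, 71 kept direction and side of the threshold, 26 lost the threshold, 1 passed it and 11 turned direction. The threshold was an unadjusted p of 0.05, and for comparisons of the injection groups only direction was judged. Most losses came from leaving out 1 fish. With 5 fish the exact sign-flip permutation p cannot go below 0.0625, so those losses were fixed in advance and say nothing on robustness. The window mattered most. With 530 to 560 there were 55 members, which then took in abundant scars closer to the cut, so a different class was measured. Cas9 RNA minus Cas9 protein became -1.04 percentage points in share of reads (-1.04 without a read minimum), -5 in number and -20.1 per 100 unscarred reads. Members minus near scars became -1.62 points in insertions, -1.83 in recurrence and 9.93 in libraries with a read (exact permutation p = 0.0625), and the difference between unscarred reads and the leading near scar became 3.53 points (exact permutation p = 0.03125). With 500 to 590 there was 1 member, the group difference in share of reads was 0.000755 percentage points, and 5 comparisons gave no value. Weighting scars by reads gave -13.4 for insertions, counting any read in another fish -0.523 for recurrence, and scars with at least 100 reads 6.98 for libraries with a read (exact permutation p = 0.0625). On reads with near scars, the next scar by reads gave -0.0139, and the near scar with the most reads over all fish, chosen after seeing the data, -0.0132.

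Leaving out 1 fish gave 81.2 to 84.6 points for 1-bp scars, 28.2 to 30.002 for insertions, 22.6 to 26.01 for libraries with a read and -167 to -157 for the coefficient of variation, all with an exact permutation p of 0.0625, the smallest that 5 fish allow. It gave -0.0112 to 0.062 for unscarred reads against the leading near scar, 0.0624 to 0.154 for the group difference in share of reads and 0.00774 to 0.095 for that per 100 unscarred reads. With all barcodes, each counted equally whatever its reads, the group difference in share of reads was 0.0412 in place of 0.119. With the reads of a fish's libraries pooled it was 0.101. A replicate block, pairing same-numbered fish, left the share difference at 0.119 (exact permutation p = 0.25), and those of number and per 100 unscarred reads at 1.33 and 0.057 (exact permutation p = 0.50 each). The numbers name separate fish. A minimum of 30 reads kept 10 members and a minimum of 0.01% of a library kept 7. Thinned to 4211588 reads per fish, 11 were kept. For the 5-bp deletion, and less so for the 6-bp insertion, depth limits what their absence on scarred reads shows. For both, so does their choice through 1 library.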
